A study of Drosophila melanogaster with 3 samples.

Results

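Binding of the zinc finger protein az2 was described at 9 genes of the trithorax group and its Brahma complexes, out of 13945 protein-coding genes annotated on the chromosome arms. The genes were brm, mor, osa, Snr1, trx, ash1, ash2, kis and Trl, a list set by gene name. It was drawn up with earlier results of these data known. The data were peak lists from chromatin immunoprecipitation with sequencing (ChIP-seq) of whole Drosophila melanogaster embryos collected from 0 to 16 hours, with both sexes pooled. The embryos came from a transgenic line that stably makes az2 fused at its C-terminus to GFP, the tag that the antibody recognised. There was 1 group of 3 biological replicates, so nothing was compared between genotypes, stages or treatments. Every cell type of the embryo contributed to each value, and embryos without the tag were not analysed here.

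The rule took every peak summit that lay within 500 bp of a transcription start site (TSS) of a member, inside its gene span, or within 5 kb outside it. Summits came from the list that the authors had thresholded by the irreproducible discovery rate (IDR), which holds 5786 peaks on the build dm6. It yielded 26 peaks, each assigned to a single member. The signal of a peak is the authors' enrichment value. Its scale is not given in the sources used here and was taken as linear, on which every relative signal below depends. Rank 1 is the highest of the 5786 peaks. The relaxed lists of single replicates, which also hold background peaks, numbered 30000, 22372 and 30000 peaks. Peak lists carry no read counts, so the depth of each replicate is unknown and a low peak cannot be told apart from one limited by depth.

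Trithorax group proteins keep active genes active through development and oppose the Polycomb group, which keeps silent genes silent. Some of them slide or evict nucleosomes, as the Brahma complexes do, and others methylate histone tails or bind DNA and recruit such enzymes. In the fly embryo they are best known for maintaining the expression pattern of the homeotic genes after the early patterning factors have gone.

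The sequences under the peaks that carry the results below were read from the dm6 genome, on the plus strand from 5′ to 3′, around the summit. Capitals mark the word ATATTA or its reverse complement TAATAT. Of all words of 6 letters it ranked first at the other 5760 IDR summits by its excess over windows 300 bp to either side, divided by the square root of its count there. By plain difference in share other AT-rich words, such as TTAAAA (34.0% against 13.8%), exceeded it. They are shown for the promoter peaks of brm, mor and kis and for the 5 highest peaks elsewhere.
brm promoter, 3L:15982942-15983042: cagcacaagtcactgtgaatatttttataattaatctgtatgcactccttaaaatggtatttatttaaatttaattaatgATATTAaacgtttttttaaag
mor promoter, 3R:15973052-15973152: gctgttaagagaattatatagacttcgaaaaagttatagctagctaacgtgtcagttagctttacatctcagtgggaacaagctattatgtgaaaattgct
kis promoter, 2L:250873-250973: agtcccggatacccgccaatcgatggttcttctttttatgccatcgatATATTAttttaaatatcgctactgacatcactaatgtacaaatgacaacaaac
osa intron, higher peak, 3R:17704368-17704468: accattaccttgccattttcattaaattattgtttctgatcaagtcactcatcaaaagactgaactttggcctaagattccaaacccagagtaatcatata
osa intron, lower peak, 3R:17700536-17700636: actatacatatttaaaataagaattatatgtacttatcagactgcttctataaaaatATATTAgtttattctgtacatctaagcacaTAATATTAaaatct
trx first intron, 3R:14283820-14283920: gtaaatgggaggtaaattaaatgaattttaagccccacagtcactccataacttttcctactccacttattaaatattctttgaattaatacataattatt
Trl intron, 3L:14759466-14759566: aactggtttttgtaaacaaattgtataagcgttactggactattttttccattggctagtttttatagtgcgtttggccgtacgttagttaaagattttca
ash1 3' flank, 3L:19590571-19590671: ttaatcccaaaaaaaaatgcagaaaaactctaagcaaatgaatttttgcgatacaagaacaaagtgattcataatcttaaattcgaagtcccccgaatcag

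Tagged az2 was found at the promoters of 5 of the 9 genes, brm, mor, Snr1, kis and Trl, and at no promoter of osa, trx, ash1 or ash2 among the IDR peaks. The share was 55.6% (exact binomial 95% interval 21.2 to 86.3%, which covers counting error only), and 22.6% of all protein-coding genes had a summit within 500 bp of a TSS. The 4 genes without a promoter peak had summits elsewhere: osa and trx inside the gene, and ash1 and ash2 beyond their 3′ ends. All 9 genes therefore had a summit in the span or within 5 kb, as did 53.4% of protein-coding genes, 61.2% of those at least as long as the shortest member, and 70.6% of those at least as long as the median member (12788 bp). Of the 26 summits, 5 were at promoters, 13 lay inside a gene beyond 500 bp of its TSSs, 3 lay upstream and 5 downstream. Their signals ran from 140 to 4202, with a median of 343 against 233 for all IDR peaks, and 17 of the 26 were above that median.

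**Figure D1:**
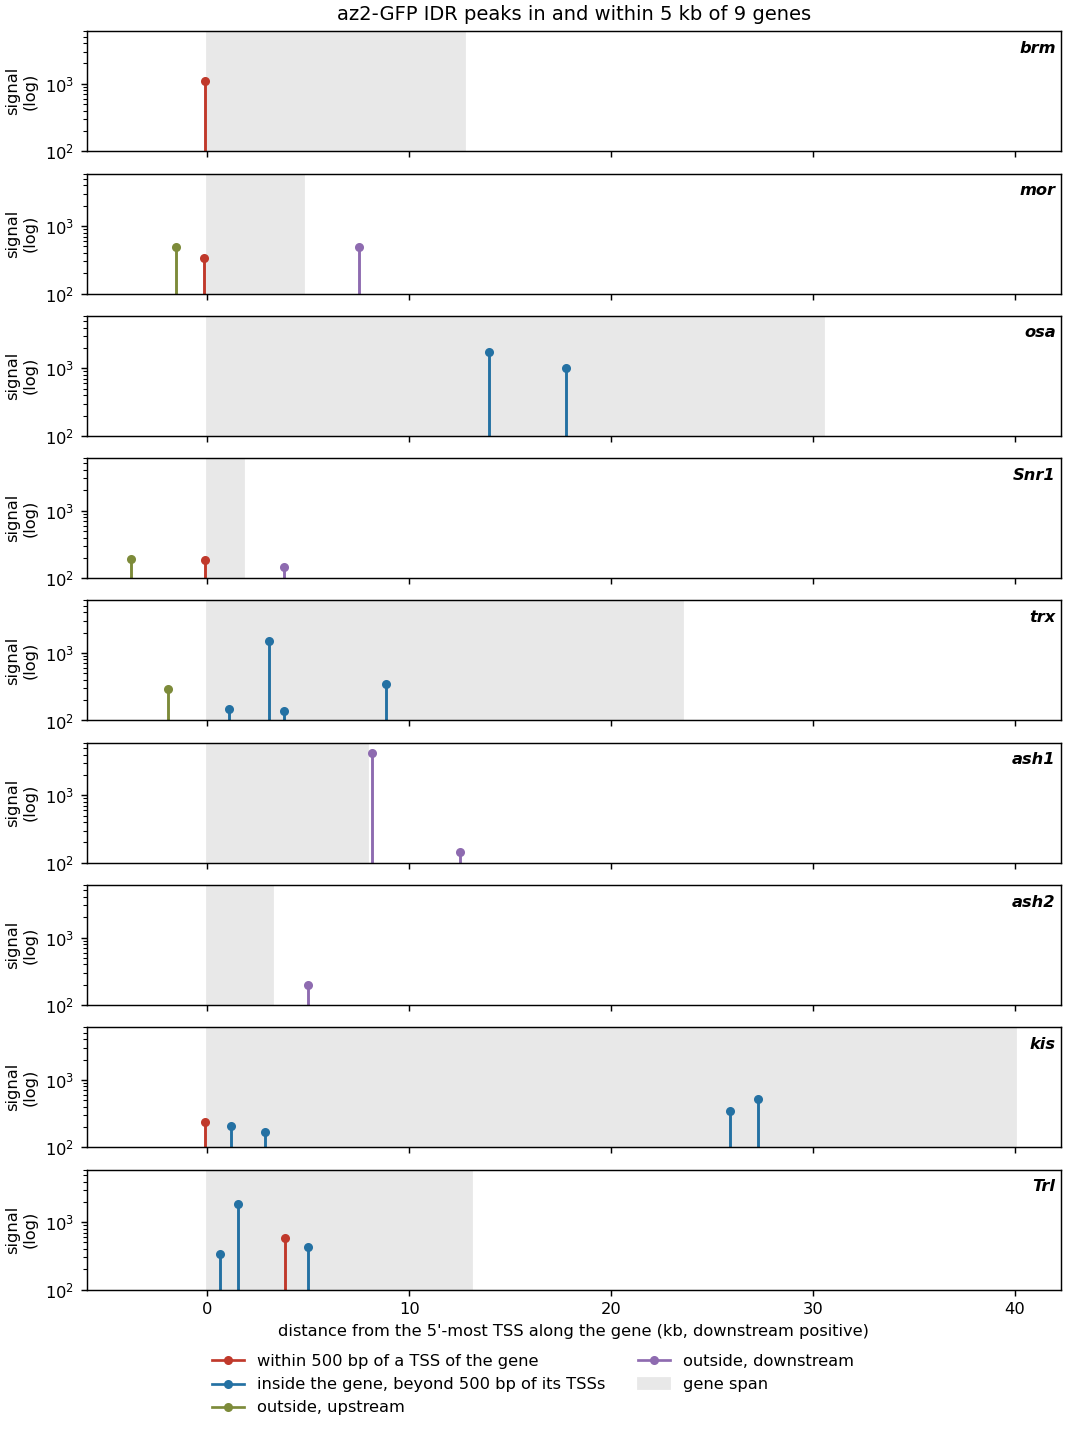
Peaks of tagged az2 in and around the 9 genes, with signal on a log axis against distance from the 5′-most TSS in kb, oriented along each gene (grey, gene span). Points are IDR summits coloured by position; osa, trx, kis and Trl hold summits inside the gene, and the highest point of all, at 4202, stands just beyond the 3′ end of ash1.

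Among the genes of the Brahma complexes, the promoter of brm carried the highest signal. The gene brm (FBgn0000212, 3L:15970082-15982869, minus strand) encodes the ATPase that drives these remodelling complexes. Its peak at 3L:15982811-15983193 had a signal of 1102 and rank 159, and the summit lay 123 bp upstream of the TSS in intergenic DNA. The signal was 262 in replicate 1, 478 in replicate 2 and 361 in replicate 3, with ranks 141, 151 and 178 in their lists. All 3 replicates thus placed the peak near the top of their lists. To set replicates side by side, each signal was divided by the median signal at IDR summits in that replicate, 57.8, 97.0 and 86.6. On this relative scale the brm promoter stood at 4.54 ± 0.38 (SD, n = 3). The promoter is shared: the TSS of Arl1, a small GTPase of the Golgi, lies head-to-head 266 bp away, and the summit fell between both start sites. The printed window was poor in G and C, at 21.8%, and held a single ATATTA.

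The peak at the promoter of mor was lower and, relative to its mean, varied more between replicates. The gene mor (FBgn0002783, 3R:15968134-15972913, minus strand) encodes a core scaffold subunit of the Brahma complexes. Its promoter peak at 3R:15972887-15973316 (signal 338, rank 1717) had its summit 189 bp upstream of the TSS. The signals were 61.4, 161 and 109 in replicates 1 to 3, a relative signal of 1.33 ± 0.31 (SD, n = 3). All 3 values were above the median of their replicate. The start site of Hel89B, a Snf2-family helicase gene, lay head-to-head at 385 bp, so this promoter too is shared. Both flanking peaks were higher than the promoter peak. The upstream peak at 3R:15974295-15974510 (signal 494, rank 871) lay in an intron of Hel89B, 1542 bp from the mor TSS. The downstream peak at 3R:15965273-15965481 (signal 492, rank 880) lay 29 bp upstream of the TSS of CG32856 and also within 500 bp of that of Rbf2, a retinoblastoma family gene.

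Snr1 had the lowest promoter peak of the 5. The gene (FBgn0011715, 3R:5470926-5472754, plus strand) encodes a core subunit, the fly counterpart of yeast SNF5, and is the shortest of the 9 at 1829 bp. Its promoter peak at 3R:5470589-5471018 (signal 187, rank 3863) had its summit 122 bp upstream of the TSS. The replicate signals were 45.5, 75.6 and 69.7, and the relative signal of 0.791 ± 0.012 (SD, n = 3) was the least variable of all 26 peaks relative to its mean. It lay below the median IDR summit in each replicate. The head-to-head neighbour was mRpL44, a mitochondrial ribosomal protein gene, 290 bp away. By position, the flanking peaks were nearest to the start sites of other genes. That at 3R:5466929-5467358 (signal 194) lay 43 bp upstream of RpL35A, of the cytosolic ribosome, and was uneven between replicates, with signals of 105, 28.3 and 54.8 and ranks of 1075, 12727 and 5184. That at 3R:5474487-5474916 (signal 147) lay 102 bp upstream of HDAC3, a histone deacetylase gene, with Hcs and CG45100 also starting within 500 bp.

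The promoter of osa had no IDR peak, but osa carried 2 high peaks deep inside the gene. The gene osa (FBgn0261885, 3R:17687818-17718350, minus strand, 30533 bp) encodes the ARID subunit that defines the BAP form of the Brahma complex. The higher peak, at 3R:17704233-17704608, lay 13932 bp into the gene and had rank 44 with a signal of 1729. In the replicates it reached 394, 753 and 588, with ranks of 40, 46 and 47 and a relative signal of 7.12 ± 0.55 (SD, n = 3). The second, at 3R:17700393-17700792, lay at 17764 bp with a signal of 1011 and rank 185, and reached 261, 420 and 329 in the replicates, a relative signal of 4.21 ± 0.37 (SD, n = 3). The relative signals of these 2 peaks did not overlap across replicates, whereas the undivided signals did, with 394 for the higher and 420 for the lower. Within each replicate the higher peak stood above the lower. Both sat in intron 4 of 15 of the canonical transcript, beside noncoding genes nested there. The higher summit was in an exon of lncRNA:CR46035, and the lower lay 155 bp upstream of the TSS of lncRNA:CR46036, so it is also a promoter summit of that RNA. The lower one had 3 copies of the ATATTA word in its printed window, 2 of them overlapping in the run TAATATTA, and the higher one had 0. At the osa TSS itself the pooled relaxed list held 2 peaks, the higher with a signal of 103 and rank 7656, which is below the IDR boundary. The replicate lists held 2, 3 and 1 peaks there, with highest signals of 18.97, 48.5 and 38.3, so osa had relaxed peaks at its TSS in all 3 replicates.

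Of the 3 histone methylation genes, trx carried its binding in the first introns. The gene trx (FBgn0003862, 3R:14263358-14286903, minus strand, 23546 bp) encodes a methyltransferase for lysine 4 of histone H3. It had 4 summits inside the gene and 1 upstream. The highest, at 3R:14283665-14284059 in intron 1 of 8, lay 3033 bp into the gene and had rank 67 with a signal of 1489. The replicate signals were 340, 612 and 531, with ranks 64, 74 and 62, and the relative signal was 6.11 ± 0.21 (SD, n = 3). This was below the higher osa peak in each of the 3 replicates. The other summits inside trx were much lower: 345 at 8845 bp in intron 2, 148 at 1087 bp and 140 at 3789 bp, the last being the lowest of the 26 peaks. The upstream peak at 3R:14288621-14289050 (signal 291) lay 235 bp upstream of the neighbouring gene red and 1933 bp from the trx TSS. Within 500 bp of the trx TSS no peak was found in the pooled relaxed list, and a single peak in replicate 2 alone (signal 22.5, rank 18952).

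The gene ash1, whose product methylates lysine 36 of histone H3, stood next to the highest of all IDR peaks. ash1 (FBgn0005386) spans 3L:19590773-19598755 on the minus strand, and the peak at 3L:19590396-19590843 had its summit 152 bp beyond the 3′ end of the gene. The signal was 4202, and in the replicates 887, 1987 and 1353, which was rank 1 in all 3 lists. The relative signal was 17.2 ± 2.90 (SD, n = 3), with values of 15.4, 20.5 and 15.6. The summit lay 97 bp upstream of the TSS of CG14100, the gene that follows ash1 on the same strand, and 8134 bp from the ash1 TSS. By position it is thus a promoter peak of CG14100, and the lists do not tie it to ash1. A second peak downstream, at 3L:19586009-19586438 (signal 143, rank 5274), lay 29 bp upstream of CG9330. The ash1 promoter itself is head-to-head with Taf6, a gene of the general factor TFIID, at 333 bp, and had no peak in the pooled relaxed list. Relaxed lists of replicates 1 and 3 held 2 peaks each there, with highest signals of 29.7 and 40.4.

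The gene ash2 had a single, low peak, outside the gene. It (FBgn0000139, 3R:24650125-24653376, plus strand) encodes a subunit shared by the COMPASS complexes that methylate lysine 4 of histone H3. The peak, at 3R:24654872-24655301, lay 1711 bp beyond the 3′ end with a signal of 197 and rank 3615. The replicate signals were 54.6, 65.4 and 76.1, a relative signal of 0.833 ± 0.141 (SD, n = 3), below the median IDR summit in each replicate. The nearest TSS was that of CG6695, 73 bp away, with CG31125 starting within 500 bp too. Although ash2 lies head-to-head with puf, a ubiquitin protease gene, at 82 bp, its TSSs had no peak in the pooled relaxed list. The relaxed lists of replicates 1 and 3 held 1 and 2 peaks there, with highest signals of 15.4 and 31.4.

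At kis the peaks were many and of middle to low signal. The gene kis (FBgn0266557, 2L:210735-250823, minus strand) encodes a chromodomain remodeller of the CHD family and is the longest of the 9 at 40089 bp. The promoter peak at 2L:250708-251137 had a signal of 238 and rank 2790, with its summit 100 bp upstream of the 5′-most of 2 TSSs. There was no head-to-head partner. Replicate signals were 62.5, 71.1 and 90.8, and the relative signal was 0.955 ± 0.192 (SD, n = 3). Replicates 1 and 3 were above the median of their list, at 1.08 and 1.05, and replicate 2 was below, at 0.734. The highest kis peak, at 2L:223420-223672 (signal 523, rank 772, relative signal 2.22 ± 0.29, SD, n = 3), lay 27302 bp into the gene in intron 11 of 16. Its summit was 2 bp downstream of the TSS of lncRNA:CR44222. A peak of 348 stood 25896 bp into the gene, also in intron 11. In intron 1, peaks of 210 and 166 stood at 1168 and 2849 bp, the first in an exon of lncRNA:CR44218.

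Trl combined a promoter peak with higher binding in an intron. The gene Trl (FBgn0013263, 3L:14747929-14761049, minus strand) encodes the GAGA factor, which binds GA repeats at promoters and Polycomb response elements. It has 4 annotated start sites. The promoter peak at 3L:14757075-14757329 (signal 585, rank 606) lay 154 bp downstream of an internal TSS, in a 5′ untranslated region, where Trl overlaps CG42507. Of the 5 promoter summits it alone lay downstream of its TSS, and it was 3867 bp from the 5′-most TSS. In the replicates it reached 120, 238 and 222, a relative signal of 2.36 ± 0.26 (SD, n = 3). The highest Trl peak, at 3L:14759294-14759756 (signal 1863, rank 34), lay in an intron 1533 bp downstream of the nearest TSS. Its replicate signals were 438, 710 and 712, with ranks 31, 55 and 27 and a relative signal of 7.71 ± 0.46 (SD, n = 3), which overlapped the values of the higher osa peak. Intronic peaks of 431 and 340 lay at 1250 and 618 bp from the nearest TSS, the latter being the summit just outside the 500 bp limit, while the farthest inside it was that of mor at 189 bp. Trl had 3.05 summits per 10 kb of span, more than any other of the 9.

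**Figure D2:**
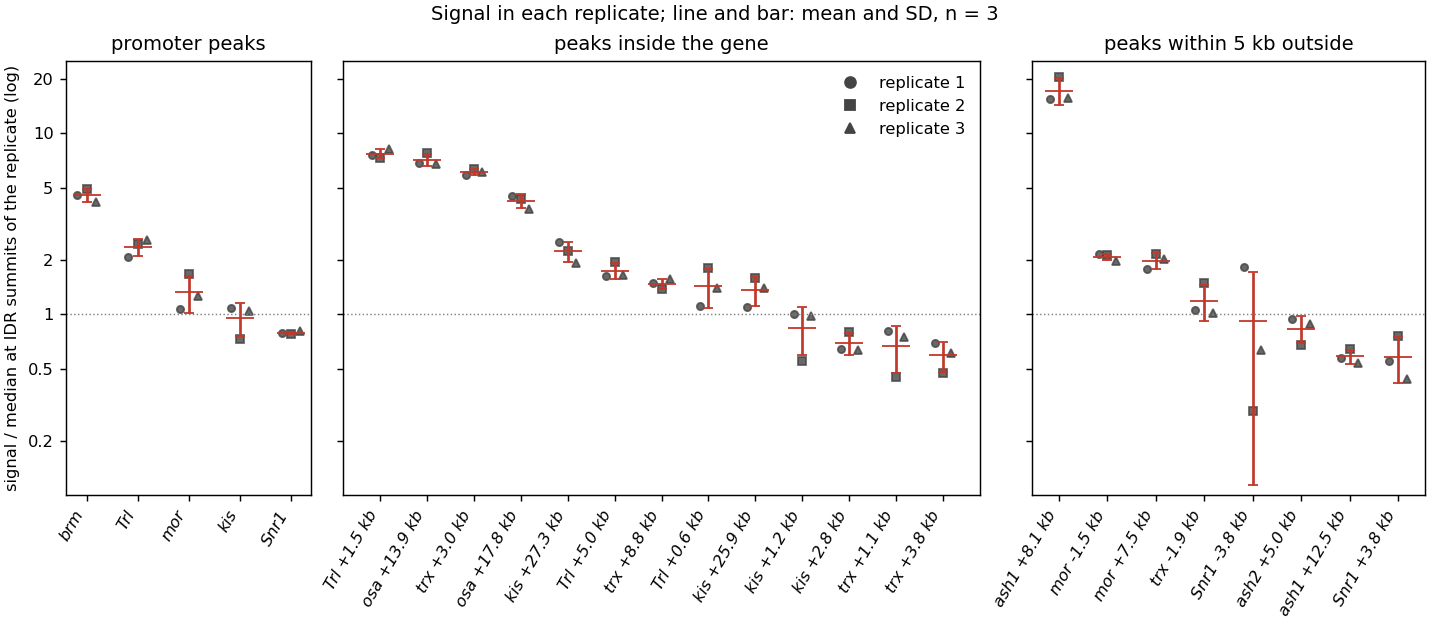
Relative signal (replicate signal divided by the median at IDR summits of that replicate, log axis) of the 26 peaks at promoters, inside genes and within 5 kb outside, the latter named by distance from the 5′-most TSS. Symbols are the 3 replicates and red marks the mean and SD; the ash1 flank peak stands highest at 17.2, and the Snr1 upstream peak spreads most, from 1.81 in replicate 1 to 0.292 in replicate 2.

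The order of the promoters by signal was brm, Trl, mor, kis and Snr1. On the relative scale the replicate values of brm, Trl and mor did not overlap, whereas those of mor and kis overlapped, as did those of kis and Snr1. The undivided replicate signals of Trl and mor overlapped as well. Among the 3157 promoter-bound protein-coding genes, brm ranked 153, Trl 515, mor 1253, kis 1852 and Snr1 2342. The members thus spread from the top to the lower part of all bound promoters. Their median promoter signal was 338 against 280 for all bound genes. The summits lay at a median of -122 bp from the TSS, with 4 of 5 upstream, and those of all bound genes at -143 bp, with 90.5% upstream.

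All 26 summits lay in a peak of all 3 relaxed replicate lists, as did 98.2% of all IDR summits. With each replicate list cut to its 5786 highest peaks, 21 summits were covered in all 3 (against 72.6% of all IDR summits), 3 in 2 of them and 2 in 1. The latter 2 were the downstream peak of Snr1 and the lower downstream peak of ash1. The replicate summit lay within 100 bp of the IDR summit in all 3 replicates for 24 of the 26, and for 84.8% of all IDR summits. The IDR boundary fell between signals of 132.869 and 132.865 in the pooled list. The lowest member peak, 140 in trx, was close to it.

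Summits inside the gene beyond 500 bp of every own TSS were found at osa, trx, kis and Trl. These are 4 of the 9 genes, against 8.84% of all protein-coding genes and 46.7% of those at least as long as the median member. All 4 are longer than 12788 bp, and the 5 others are not. Of these others only brm, at exactly 12788 bp, meets the length limit of the 46.7%, so that share stands beside these 4 and brm rather than all 9. The 9 gene spans together measured 137921 bp and held 14 summits, or 1.02 per 10 kb, against 0.351 over all protein-coding gene spans, 0.348 over those at least as long as the median member and 0.432 over the chromosome arms. Of all 26 summits 11 were in introns, 11 in intergenic DNA, 3 in exons of noncoding RNA genes and 1 in a 5′ untranslated region. Over all IDR summits these shares were 47.5%, 42.0%, 2.71% and 6.03%, and 0.346% were in coding sequence, where the members had none. Of the 8 summits outside the genes and beyond the promoter window, 7 lay within 500 bp of the TSS of another gene, the exception being that in the intron of Hel89B. Over all pairs of a protein-coding gene and a summit placed in this way the share was 68.2%.

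Peaks among the 100 highest of the list lay in the span or within 5 kb of 4 of the 9 genes: ash1 (rank 1), Trl (34), osa (44) and trx (67). Over all protein-coding genes the share was 2.27%, and over those at least as long as the median member 3.68%, a limit that ash1 (7983 bp) does not meet. The limit of 100 was chosen after the ranks were seen, so the count is a description. None of these 4 peaks was within 500 bp of a TSS of the member itself.

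In a wider list of 56 trithorax group, Brahma, COMPASS and remodeller genes, 27 were promoter-bound (48.2%, exact 95% interval 34.7 to 62.0%). Without the 9 members the count was 22 of 47 (46.8%, 32.1 to 61.9%), again beside 22.6% of all protein-coding genes. Their median promoter signal over the 27 was 249, against 280 for all bound genes. For comparison, 10 of 22 Polycomb group genes (45.5%, 24.4 to 67.8%) and 10 of 16 genes of architectural proteins (62.5%, 35.4 to 84.8%) were bound. Trl is also in the architectural list, and Caf1-55 is in both the wider and the Polycomb list. The intervals of the lists overlapped one another, which does not show that the lists are alike, because they are small and share genes.

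**Figure D3:**
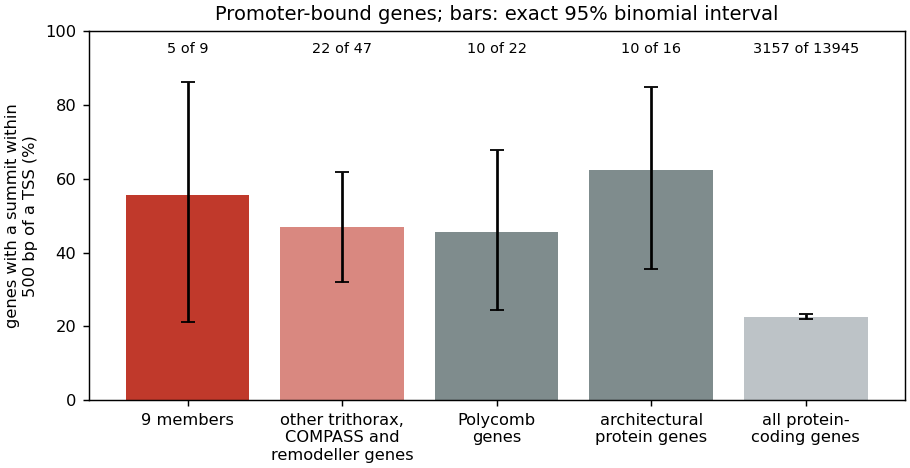
Share of genes with an IDR summit within 500 bp of a TSS, in percent, for the 9 members, the rest of the wider list, Polycomb genes, architectural protein genes and all protein-coding genes; error bars are exact 95% binomial intervals and the counts stand above. The 4 lists range from 45.5% to 62.5%, and all protein-coding genes are at 22.6%.

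By complex, 8 of 15 genes of the Brahma complexes and 6 of 15 of the COMPASS complexes were bound. So were 6 of 12 other remodellers and 7 of 14 other trithorax group or cofactor genes, beside 22.6% of all protein-coding genes. In the same order, 10, 7, 6 and 7 genes of these groups had a head-to-head partner. These 4 groups were drawn up after the data had been seen. In the Brahma group the bound genes after brm were led by tth (signal 623), Act5C (340), the actin subunit, mor, the bromodomain gene Brd7-9 (335) and the core subunit gene Bap60 (278). No member of the group other than brm exceeded a signal of 1000 at its promoter. Bap111, Bap170, Bap55, polybromo, d4 and e(y)3 were not promoter-bound, like osa. Of the COMPASS genes the highest were Lpt (853), which belongs to the complex of the methyltransferase trr, and the core subunit gene Rbbp5 (339). The methyltransferase genes trx, trr and Set1 themselves were without a promoter peak. Of the remodellers, the ATPase genes Ino80 (884) and Chd1 (551) exceeded kis, while Iswi, Mi-2 and dom had none at their promoters. Among the others, lolal (395) encodes a BTB protein that acts with the GAGA factor, skd (371) a Mediator subunit, nej (249) the acetyltransferase CBP, and psq (241) another GAGA-binding BTB protein.

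**Figure D4:**
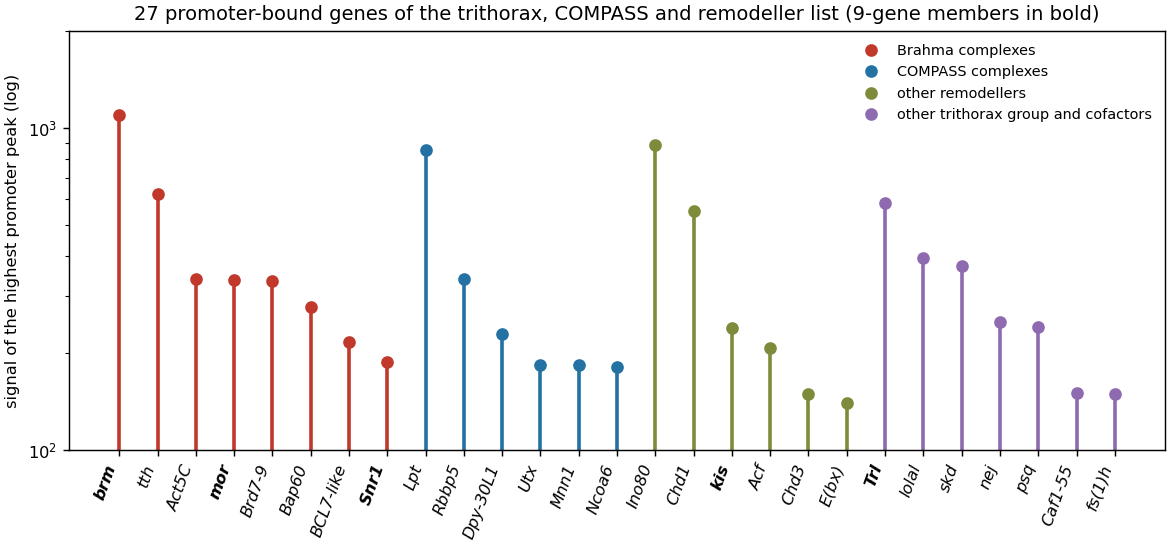
Signal of the highest promoter peak (log axis) of the 27 promoter-bound genes in the wider list, grouped by complex, with the members in bold. The gene brm is highest at 1102, followed by Ino80 at 884 and Lpt at 853, and the lowest is at 140.

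Promoters shared by divergent genes were also counted in the wider list. Of its 56 genes 30 shared their promoter with a gene starting in the opposite direction at most 500 bp away, of which 16 were bound (53.3%). Of the 26 others 11 were bound (42.3%). Over all protein-coding genes 28.4% shared a promoter in this way, of which 42.3% were bound, against 14.8% of the rest. Of the 27 bound promoters 23 had the summit upstream of the TSS, beside 90.5% of all bound protein-coding genes. All 27 were covered in the 3 relaxed replicate lists, as were 98.2% of all IDR summits. Of the 29 genes without a promoter peak, 19 had a summit elsewhere in the span or within 5 kb and 10 had none. The same share over all genes without a promoter peak was not computed. Over all protein-coding genes, promoter-bound or not, 53.4% had a summit in the span or within 5 kb. Among the 9 members the partners were Arl1, Hel89B, mRpL44, Taf6 and puf. The first 3 of these shared promoters were bound, and those with Taf6 and puf were not.

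The genes whose promoter peaks were most like those of the members were found by the Euclidean distance of log2 signal over the 3 replicates. For brm they were Ing5 and CG7099, which share a peak with signals of 266, 469 and 362 and a distance of 0.04. For Trl they were Ciao1 and HPS1, which also share a peak (122, 247 and 228, distance 0.07). For mor they were Sxl (60.5, 160 and 109, distance 0.02) and Karl (distance 0.07), for kis CG9044 (0.12) and JIL-1 (0.13), and for Snr1 Atf-2 (0.09) and yellow-e3 (0.11). These distances describe height in 3 replicates and nothing else.

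The summits of the members were poor in G and C. Within 50 bp of the summit the median content was 33.2% (range 15.8 to 51.5%), against 47.5% in windows 300 bp to either side, and it was lower at the summit in 24 of 26 peaks (92.3%). Over all 5786 IDR summits the medians were 31.7% and 44.6%, and the content was lower at the summit in 83.5%. The highest members were the kis peak of signal 348 (51.5%) and the Snr1 upstream peak at RpL35A (48.5%).

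**Figure D5:**
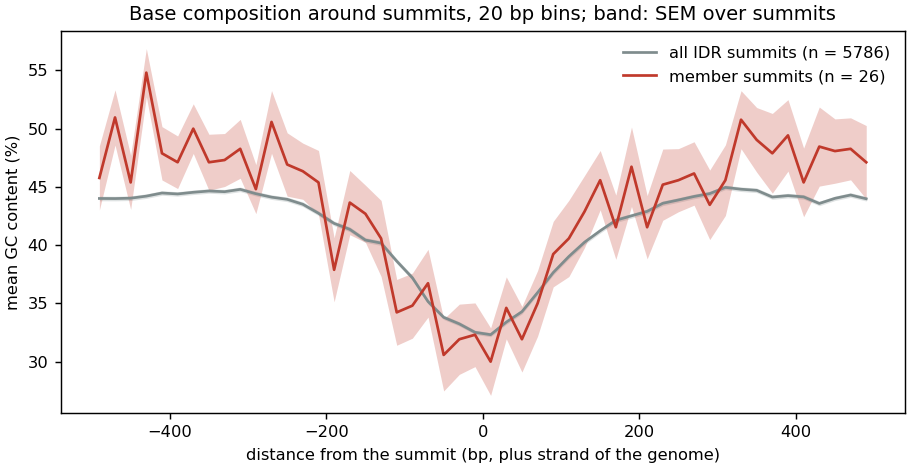
Mean GC content in percent in 20 bp bins against distance from the summit in bp, for the 26 member summits (red) and all 5786 IDR summits (grey), with bands of 1 standard error over summits. Both curves dip at the summit, to 32.3% and 32.5% in the bin just left of it, from 45.8% and 44.0% at the left edge.

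The word ATATTA was found on either strand within 50 bp of 22.0% of the other IDR summits and in 6.66% of the windows beside them. Within 50 bp it occurred at 7 of the 26 member summits (26.9%, against 22.1% of all IDR summits), and within 100 bp at 13 of the 26, against 36.3% of all IDR summits. The printed windows show it at the brm and kis promoters and the lower osa peak. The mor promoter and the higher osa, trx, Trl and ash1 peaks had none within 50 bp. The 4 highest member peaks were therefore without this word near the summit. Of words fixed from known fly promoter factors, searched on both strands within 100 bp, GAGAG, the GAGA factor's word, was at 4 member summits (15.4%, against 20.9% of all), in windows of osa, Snr1, trx and kis and at none of Trl. TATAAA was at 12 (46.2%, against 38.4%) and CGATA, a word of BEAF-32, at 6 (23.1%, against 27.1%). TATCGATA, the DNA replication-related element, which contains CGATA, was at 1 (3.85%, against 3.23%), the mor downstream peak. CATCNCTA, the core of Ohler motif 7, was at 3 (11.5%, against 4.23%), in windows of Snr1 and kis, and GGTCACAC, the core of Ohler motif 1, at 1 (3.85%, against 1.97%), at ash1. The words CAGCTG (8.42% of all IDR summits), CAGGTAG (0.778%) and the CTCF core (1.62%) were at 0 of the 26. Within 200 bp GAGAG was at 11 of the 26 (42.3%, against 42.0% of all), Trl included, and CAGCTG at 4 (15.4%, against 19.05%). A match shows only that the letters are there.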

How the data were processed

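The ChIP-seq peaks of 3 replicates of 1 group were analysed from 5 lists on the build dm6. Per the labels, chromatin was sheared by sonication to 200 to 800 bp and the lists are for dm6 and dm3; the dm3 lists were not used here. The aligner, the peak caller and the threshold for IDR are not given in the sources used here. Column 7 of the deposited lists holds the authors' signal per peak, used to describe and rank peaks. Column 10, as deposited, gives the distance of the summit from the peak start in bp, an other kind of value. Peaks were called by the authors per replicate and on pooled reads. The depth is unknown, so no depth interval was computed.

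Summits (counted from 1) were set against the TSSs of Ensembl BDGP6.54 (release 115) on 6 arms with Python 3.11.15, pandas 2.3.3, NumPy 2.4.6 and SciPy 1.17.1. A replicate supported a summit lying in one of its peaks. Exact (Clopper-Pearson) 95% intervals were computed for the promoter-bound shares of the gene lists and for the motif shares within 100 bp. Only the former are given here, and the other shares have none. Member genes, lists and limits were chosen with earlier results of these data known. With 1 group there was no test. Genes named were the members, nearest-TSS and head-to-head genes, at most 15 bound genes of the wider list by signal, and the 2 genes most like each bound member; the unbound genes of the wider list were named after their values were seen. A Polycomb name, calypso, did not match the annotation. Tested on simulated data, 214 of 214 peaks planted within 500 bp of a TSS were recovered with their offset. The sequences of 2 of the 5 promoter windows are not reported here, that of Trl because it lies in a 5′ untranslated region. Alternatives covered windows, motif windows, TSSs, flanks, peak lists and replicates left out.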

Additional observations from a re-analysis of the deposited data

How the results depend on the processing

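The count of promoter-bound members was 5 with windows of 250 and 1000 bp, with overlap of the peak in place of the summit, and without replicate 1, 2 or 3. It was 4 with only the 5′-most TSS, which drops Trl, 4 with the IDR peaks above the median signal, which drops Snr1, and 6 with the pooled relaxed list, which adds osa. The share of all protein-coding genes was 17.6% with 250 bp and 25.9% with 1000 bp. It was 24.1% with peak overlap and 20.3% with only the 5′-most TSS. With the gene span alone, without the flank or the promoter window, 4 members had a summit, and the member summits numbered 14. With the promoter window kept, an alternative chosen after seeing the data, these were 7 and 18. With the IDR peaks above the median signal there were 17 member summits, and the bound genes fell to 16 in the wider list, 4 in the Polycomb list and 6 in the architectural list. The share of all protein-coding genes fell as well, from 22.6% to 13.6%. With the pooled relaxed list there were 72 member summits, 47 bound genes in the wider list and 19 in the Polycomb list, while the share of all protein-coding genes rose to 49.4%. Leaving out a replicate gave 21 to 26 bound genes in the wider list, 6 to 8 in the Polycomb list (6 without replicate 1), 9 to 10 in the architectural list and 21 to 24 member summits. Alternatives for the Polycomb and architectural lists, and those for the 100 highest peaks (3 to 5 members), were chosen after seeing the data. The cause of these differences was not tested, apart from the change in the number of peaks that the alternatives make by construction. No paired analysis was possible because there is 1 group. Of 20 motif shares with 50 or 200 bp to either side, 16 stayed within the interval of the 100 bp share. Unknown depth limits all low peaks.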
